A study of Mus musculus with 12 samples.

Results

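Of the 18193 genes with a probe set of their own on the arrays, 10 are described here: the genes of the secreted ligands Fgf1, Fgf2, Fgf5, Fgf7 and Fgf10, of the intracellular family members Fgf12, Fgf13 and Fgf14, and of the receptors Fgfr1 and Fgfr2. They were taken by name, as every probe set whose annotated symbol is exactly that of 1 of these genes. The rule itself uses no measured value, but the genes were chosen with earlier results of these data known. This gave 24 of the 45037 probe sets tested. All mice were adult CBA/CaJ animals of both sexes, 8 to 12 weeks old. Their right ears had 3 mM ouabain, an inhibitor of the sodium potassium pump, placed at the round window niche for 60 min in all, and their left ears were left unoperated and served as controls. Auditory nerve tissue (the modiolus, the central core of the cochlea with the spiral ganglion) was taken after 3 or 7 days, which made 4 groups of 3 Affymetrix arrays: control and ouabain at each day. Because the controls were unoperated ears, an effect of the surgery cannot be told apart from an effect of ouabain.

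Fibroblast growth factors (FGFs) are a family of related proteins of which most are secreted and act on neighbouring cells. They bind, together with heparan sulphate chains, to receptor tyrosine kinases, which signal through adaptor proteins to the MAP kinase cascade and switch on their own inhibitors. A smaller branch, the FGF homologous factors to which Fgf12, Fgf13 and Fgf14 belong, is not secreted but stays in the cell, where its members bind voltage-gated sodium channels of neurons and other excitable cells. In the inner ear, FGF signalling is best known for its part in forming the otic placode and the sensory epithelium.

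The sequence before the start of transcription is shown for 2 pairs of genes that the results turn on, Fgf5 and Fgf7, which were called as higher at 3 days and not at 7 days, and Fgf10 and Fgf12, which were called as lower at both days. Each is the 250 bases upstream of a start in RefSeq (mouse build GRCm38.p6), written in the direction of the gene, and capitals mark matches on either strand to the letters of a GC box (GGGCGG), a Sox core (ACAAAG) or an AP-1 site (TGANTCA).
Fgf5, chr5:98253934-98254183, plus strand: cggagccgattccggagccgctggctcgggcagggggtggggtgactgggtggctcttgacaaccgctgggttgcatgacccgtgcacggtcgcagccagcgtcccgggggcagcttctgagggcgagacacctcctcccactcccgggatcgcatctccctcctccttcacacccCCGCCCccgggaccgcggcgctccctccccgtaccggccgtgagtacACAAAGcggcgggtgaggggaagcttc
Fgf7, chr2:126034408-126034657, plus strand: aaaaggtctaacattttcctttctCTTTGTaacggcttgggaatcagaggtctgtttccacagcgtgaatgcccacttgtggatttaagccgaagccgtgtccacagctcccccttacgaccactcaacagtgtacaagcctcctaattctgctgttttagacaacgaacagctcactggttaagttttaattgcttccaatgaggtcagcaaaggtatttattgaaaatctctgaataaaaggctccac
Fgf10, chr13:118714449-118714698, plus strand: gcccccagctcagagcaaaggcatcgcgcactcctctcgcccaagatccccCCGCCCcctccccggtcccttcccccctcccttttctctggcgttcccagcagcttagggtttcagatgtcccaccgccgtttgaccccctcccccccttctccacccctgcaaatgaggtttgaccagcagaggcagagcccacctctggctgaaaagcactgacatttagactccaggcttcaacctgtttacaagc
Fgf12, outermost start, chr16:28753244-28753493, minus strand: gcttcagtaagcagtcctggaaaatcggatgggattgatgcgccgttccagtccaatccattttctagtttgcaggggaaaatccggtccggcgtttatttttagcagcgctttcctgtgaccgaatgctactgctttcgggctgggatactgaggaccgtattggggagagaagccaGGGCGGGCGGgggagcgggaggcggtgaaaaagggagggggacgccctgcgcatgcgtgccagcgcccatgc
Fgf12, innermost start, chr16:28446076-28446325, minus strand: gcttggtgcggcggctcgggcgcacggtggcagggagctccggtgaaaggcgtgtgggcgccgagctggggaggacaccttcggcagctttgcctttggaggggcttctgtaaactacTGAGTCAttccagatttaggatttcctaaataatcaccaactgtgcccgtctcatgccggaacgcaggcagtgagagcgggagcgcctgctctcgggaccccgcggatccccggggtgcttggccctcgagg
The Fgf5 window was rich in G and C, at 70.8%, and the Fgf7 window was poor in them, at 43.6%, against a median of 52.4% over 32851 windows of all genes. A Sox core stood in 3 of the 14 windows of the members with an entry, those of Fgf5 (27 bases before the start) and Fgf7 (226 bases before it) and 1 of Fgf13, and in 16.5% of all windows. The window of Fgf14, which was also higher at 3 days, held none. The AP-1 letters were found in 6.75% of all windows and in 2 of these 14, the innermost start of Fgf12 and 1 start of Fgf13. A GC box was found in 32.7% of all windows and in 9 of the 14. The cyclic AMP response element (TGACGTCA) was found in 1.55% of all windows and in none of the 14. A match is a run of letters and no evidence of binding, and the start in use in this tissue was not measured.

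Values are RMA expression values on the log2 scale, so that a difference of 1 is a doubling. They can be compared between arrays for 1 probe set but not between probe sets. A gene stands for its probe set of the highest mean, and for the members the others are given beside it. For the pathway and marker genes the others are given only in some cases. Probe sets of 1 pathway gene did not always share a call. A difference was called when limma gave an adjusted p under 0.05 over all probe sets and the fold change was above 1.5. RNA on each array was pooled from 2 modiolus preparations, and the animals behind a pool are not named, so p-values measure the spread between pooled samples. The arrays had medians of 6.01 to 6.09. Of the members, 9 of 10 stood above 6 in at least 3 arrays, with Fgf5 reaching this only in the ouabain arrays of 3 days and Fgf2 in no array. Fgf14 stood above 6 in 6 arrays, of which control replicate 3 of 7 days (6.48) was the only control.

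At 3 days after ouabain, 6 of the 10 genes were called. Fgf5, Fgf7 and Fgf14 were higher, while Fgf1, Fgf10 and Fgf12 were lower. Over all genes, 15.6% were called at that day, with 7.51% higher and 8.06% lower. At 7 days, 4 of the 10 were called, Fgf14 as higher and Fgf1, Fgf10 and Fgf12 as lower, where 15.8% of all genes were called, with 7.57% higher and 8.2% lower. The median difference of all genes was 0.01 at 3 days and 0.03 at 7 days. Counted by probe set, 9 of 24 were called at 3 days, against 12.3% of all probe sets, and 8 of 24 at 7 days, against 12.7%. Because the members were chosen with earlier results of these data known, these counts are descriptions and no enrichment is read from them. The groups did not overlap for 8 of the 10 genes at 3 days, where this held for 43.6% of all genes, and for 5 of the 10 at 7 days, where it held for 46.1%. With 3 arrays a group such separation was common over the whole array, and nothing is read from these last counts.

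**Figure D1:**
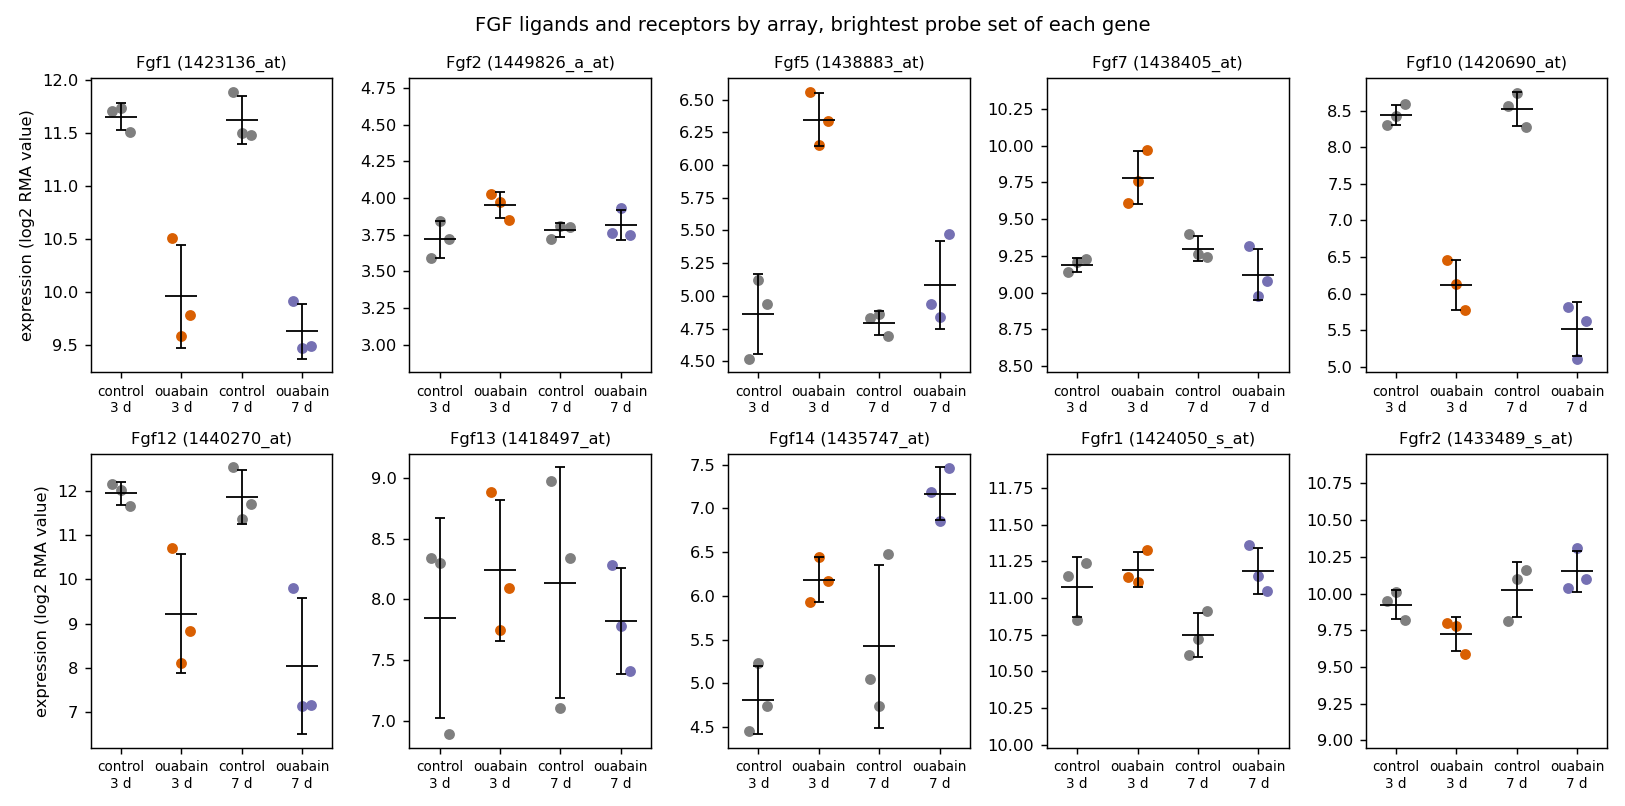
Expression (log2 RMA value) of the brightest probe set of each of the 10 genes, 1 point per array, with the mean and SD (n = 3) in black, each panel with its own axis. Fgf5 and Fgf7 stood apart in the ouabain arrays of 3 days, Fgf14 was higher and Fgf1, Fgf10 and Fgf12 were lower in the ouabain arrays of both days, and Fgf13 had wide spread in both control groups.

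Among the secreted ligands, Fgf10 had the smallest adjusted p at both days. FGF10 is a mesenchymal growth factor that acts on the epithelial form of the FGF receptor Fgfr2 and is required for limb and lung buds and for the shaping of the inner ear. Its single probe set (1420690_at) read 8.31, 8.43 and 8.59 in the 3-day controls and 6.46, 6.13 and 5.78 in the 3-day ouabain arrays. At 7 days it read 8.56, 8.74 and 8.28 in the controls and 5.82, 5.11 and 5.62 after ouabain. Every ouabain array lay below every control array of both days. Fgf10 fell by 2.32 on the log2 scale at 3 days (SE 0.20, limma adjusted p = 7.02e-06), which is 5.0-fold, and by 3.01 at 7 days (limma adjusted p = 1.18e-06), which is 8.06-fold. The further difference between the days, -0.69, was not called (limma adjusted p = 0.333).

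Fgf1, or acidic FGF, is a ligand that binds all FGF receptors and leaves the cell without a signal peptide. On its brightest probe set (1423136_at) the 3-day values were 11.71, 11.74 and 11.51 in controls and 10.51, 9.59 and 9.78 after ouabain. The 7-day values were 11.89, 11.50 and 11.48 in controls and 9.92, 9.47 and 9.49 after ouabain. In neither day did the groups overlap, and ouabain replicate 1 was the highest of its group at both days. Fgf1 fell by 1.69 at 3 days (SE 0.21, limma adjusted p = 0.000104) and by 2.0 at 7 days (limma adjusted p = 3.06e-05). A second probe set (1450869_at) fell by 1.18 and 1.31, and the third and dimmest (1441042_at), at 5.51 to 6.61 over the 12 arrays, differed by -0.34 and -0.37 and was not called.

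Fgf5, a secreted ligand known as the signal that ends the growth phase of hair follicles, was low in all controls. Its probe set 1438883_at read 4.52, 5.12 and 4.94 in 3-day controls and 6.56, 6.15 and 6.34 in 3-day ouabain arrays. At 7 days the controls read 4.83, 4.86 and 4.69, and the ouabain arrays 4.94, 4.84 and 5.47. The groups were apart by about 1 log2 unit at 3 days and overlapped at 7 days. Fgf5 rose by 1.49 at 3 days (SE 0.18, limma adjusted p = 8.25e-05), from controls that all lay under 6. At 7 days the difference was 0.29 with a 95% confidence interval of -0.11 to 0.69, and was not called. The ouabain arrays of 7 days differed from those of 3 days by -1.26 (limma adjusted p = 0.0023), while the test of the difference between the responses at the 2 days gave -1.20 and missed the threshold (limma adjusted p = 0.0585). The other Fgf5 probe set (1426186_a_at) stayed near 4 in all groups, with differences of 0.09 and -0.12, neither called.

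Fgf7, keratinocyte growth factor, is made by fibroblasts and other mesenchymal cells and, like Fgf10, acts on the epithelial form of Fgfr2. Its probe set 1438405_at read 9.14, 9.21 and 9.23 in 3-day controls and 9.61, 9.76 and 9.97 in 3-day ouabain arrays. At 7 days it read 9.40, 9.26 and 9.24 in controls and 9.32, 8.98 and 9.08 after ouabain. All 3 ouabain arrays lay above the controls at 3 days, and the groups overlapped at 7 days. Fgf7 rose by 0.59 at 3 days (SE 0.11, limma adjusted p = 0.00175), a 1.51-fold change that only just exceeds the threshold, and differed by -0.18 at 7 days (95% confidence interval -0.42 to 0.06). The response differed between the days by -0.77 (SE 0.16, limma adjusted p = 0.0458), and Fgf7 was the only member called in that test, which called 1.17% of all genes. At 3 days the change was under the threshold of 1.5-fold without control replicate 1 (0.56) or ouabain replicate 3 (0.50). Leaving out single arrays ended the call of the difference between days in 10 of 12 cases, with adjusted p up to 0.116. The second probe set (1422243_at) showed 0.39 at 3 days (limma adjusted p = 0.0207) and -0.34 at 7 days (limma adjusted p = 0.0394), both below the fold threshold, with the groups apart in opposite directions.

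Fgf7 and Fgf10 went in opposite directions at 3 days, although they are ligands of the same receptor form. The other member ligand, Fgf2 or basic FGF, a mitogen for many cell types, was near the floor of the arrays at 3.59 to 4.03 throughout. Its differences of 0.23 at 3 days (limma adjusted p = 0.0891) and 0.03 at 7 days were not called.

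**Figure D2:**
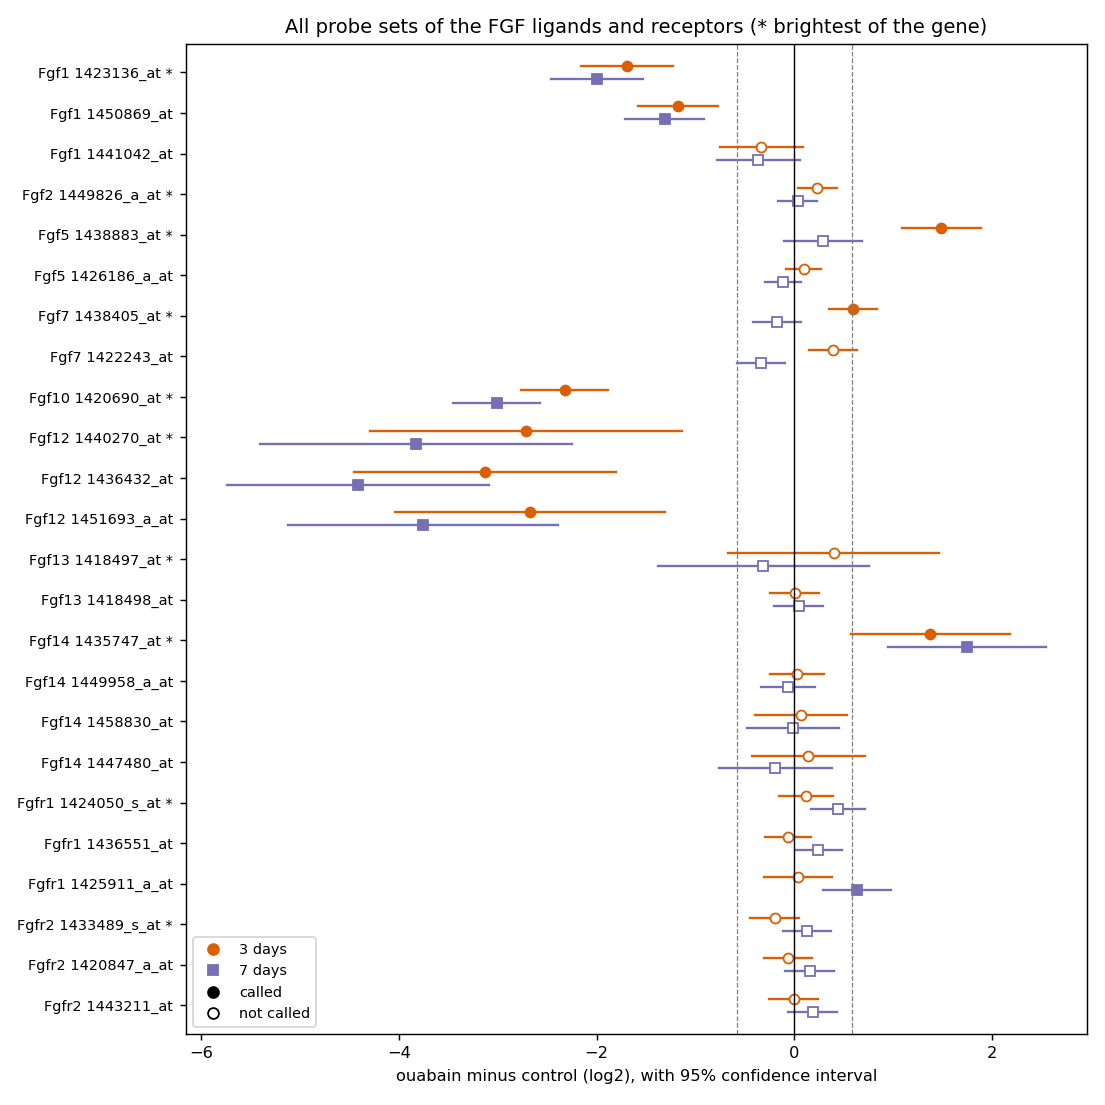
Difference between ouabain and control (log2) with its 95% confidence interval from limma for all 24 probe sets at 3 and 7 days, where filled symbols were called and dashed lines mark the 1.5-fold threshold. All 3 Fgf12 probe sets and 2 of 3 Fgf1 probe sets were lower at both days, whereas 1 of 4 Fgf14 probe sets carried the increase of that gene.

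The intracellular members did not move together. Fgf12 (FGF homologous factor 1), an intracellular protein that binds sodium channels and alters their inactivation, had the largest decreases of the 10 genes at both days. On its brightest probe set (1440270_at) it read 12.15, 12.03 and 11.65 in 3-day controls and 10.72, 8.12 and 8.84 after ouabain. At 7 days it read 12.53, 11.36 and 11.70 in controls and 9.81, 7.14 and 7.16 after ouabain. No ouabain array reached the lowest control of its day, and ouabain replicate 1 was the highest of its group at both days. Fgf12 fell by 2.72 at 3 days (SE 0.72, limma adjusted p = 0.0156), or 6.57-fold, and by 3.83 at 7 days (limma adjusted p = 0.00198), or 14.2-fold. The other probe sets fell by 3.13 and 2.67 at 3 days and by 4.42 and 3.75 at 7 days. The 3-day call on the brightest probe set was lost without control replicate 1 (limma adjusted p = 0.0507), ouabain replicate 2 (limma adjusted p = 0.0738) or ouabain replicate 3 (limma adjusted p = 0.0609), and with a mean-variance trend and robust moderation (limma adjusted p = 0.0532), while without ouabain replicate 1 of both days the differences were -3.46 at 3 days and -4.72 at 7 days.

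Neuronal markers moved with Fgf12, Fgf10 and Fgf1. Of 17 marker genes of spiral ganglion neurons, 16 were lower at both days, with Syt2, a synaptic vesicle protein, at -3.44 and -4.43 and Thy1, a surface protein of neurons, at -3.12 and -3.90. Their summed linear level, divided by 1000 here and below, was between 81.6 and 86.8 in controls and between 12.3 and 30.0 after ouabain at 3 days. The 7-day levels were between 76.4 and 85.1 in controls and between 7.27 and 17.3 after ouabain. The median of these markers against the same-day controls was -1.52 in ouabain replicate 1 and -2.80 and -2.84 in the other 3-day arrays, and -2.33, -3.62 and -3.88 at 7 days. Fgf12 stood at -1.22, -3.82 and -3.10 in the same 3-day arrays and at -2.05, -4.73 and -4.70 in those of 7 days. Fgf10 stood at -1.98, -2.32 and -2.67 and at -2.71, -3.41 and -2.91. In these bulk samples, fewer neurons and less RNA per neuron cannot be told apart, and the part of neuronal loss in the lower Fgf1, Fgf10 and Fgf12 values was not tested.

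Of the genes for proteins that intracellular FGFs bind, 6 were measured. At each day 3 of them were lower and none higher. Scn1a, a sodium channel of neurons, was at -3.18 and -4.43 at 3 and 7 days, Scn8a, the sodium channel of the node of Ranvier, at -2.86 and -4.23, and Mapk8ip2, a kinase scaffold that binds FGF homologous factors, at -2.63 and -3.31. The sodium channel genes Scn2a, Scn3a and Scn9a were not called at either day. Scn1a is also in the list of neuronal markers.

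**Figure D3:**
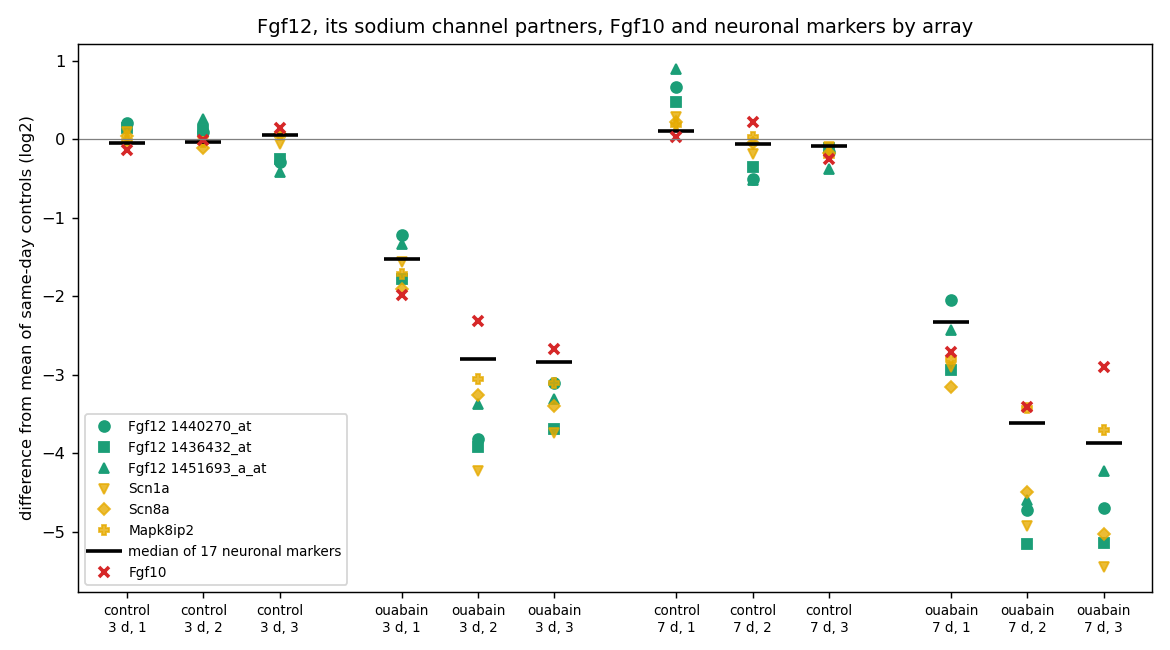
Difference of each array from the mean of the same-day controls (log2) for the 3 Fgf12 probe sets, Scn1a, Scn8a, Mapk8ip2 and Fgf10, with the median of 17 neuronal markers as a bar. In both ouabain groups replicate 1 lay highest for Fgf12, Scn1a, Scn8a, Mapk8ip2, Fgf10 and the median of the neuronal markers.

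Fgf14 (FGF homologous factor 4), known from an inherited ataxia, went the other way. Its probe set 1435747_at read 4.46, 5.23 and 4.74 in 3-day controls and 5.93, 6.45 and 6.17 after ouabain. At 7 days it read 5.05, 4.74 and 6.48 in controls and 7.19, 6.86 and 7.46 after ouabain. The groups did not overlap at either day, although control replicate 3 of 7 days was well above the other controls. Fgf14 rose by 1.37 at 3 days (SE 0.37, limma adjusted p = 0.0164) and by 1.75 at 7 days (limma adjusted p = 0.00407). All controls but 1 lay under 6, so these sizes are set in part by the low end of the arrays. The other 3 probe sets, 1449958_a_at, 1458830_at and 1447480_at, had group means of 2.94 to 4.16 and differences of -0.20 to 0.14, none called, and with the mean over all 4 probe sets Fgf14 was not called (0.40 and 0.37). The 3-day call was also lost without control replicate 1 (limma adjusted p = 0.0674), control replicate 3 (limma adjusted p = 0.0517) or ouabain replicate 2 (limma adjusted p = 0.0659). Neither Fgf12 nor Fgf14 was called at either day with the test of the study's methods after adjustment.

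Fgf13 (FGF homologous factor 2), a sodium channel and microtubule binding protein, had no called difference. Its probe set 1418497_at read 8.34, 8.30 and 6.89 in 3-day controls and 8.88, 7.75 and 8.09 after ouabain. The 7-day readings were 8.97, 7.11 and 8.34 in controls and 8.28, 7.78 and 7.41 after ouabain. The groups overlapped at both days, and single controls lay more than 1 log2 unit below the others. The differences of 0.40 (95% confidence interval -0.67 to 1.47) and -0.31 (-1.38 to 0.76) leave room for changes of either sign. The other probe set (1418498_at) stood at 3.67 to 4.22 in all arrays and differed by 0.00 and 0.04.

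Neither receptor gene was called on its brightest probe set. Fgfr1, a receptor of neurons, glia and mesenchyme, read 11.15, 10.85 and 11.24 in 3-day controls and 11.14, 11.11 and 11.33 after ouabain on its brightest probe set (1424050_s_at). The 7-day readings were 10.61, 10.72 and 10.91 in controls and 11.36, 11.15 and 11.05 after ouabain, without overlap. The difference was 0.12 at 3 days (limma adjusted p = 0.607) and 0.44 at 7 days (SE 0.12, limma adjusted p = 0.0223), the latter a 1.35-fold change that stayed under the fold threshold. Probe set 1425911_a_at, with 7.21, 7.43 and 7.37 in 7-day controls and 8.08, 8.07 and 7.76 after ouabain, rose by 0.63 at that day (limma adjusted p = 0.0109). The third probe set (1436551_at) differed by -0.06 at 3 days and 0.24 at 7 days (limma adjusted p = 0.126) and was not called. From 3 to 7 days the ouabain arrays differed by -0.01, 0.11 and 0.25 on these 3 probe sets and the controls by -0.33, -0.48 and -0.06, none of them called. No member was called between the control days, where 0.0165% of all genes were.

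Fgfr2, whose epithelial form is the receptor of Fgf7 and Fgf10, stayed between 9.59 and 10.31 on probe set 1433489_s_at in all 12 arrays. The differences were -0.20 at 3 days (95% confidence interval -0.44 to 0.05) and 0.13 at 7 days (-0.12 to 0.37), so that changes of more than 1.5-fold lie outside both intervals. The other 2 probe sets differed by -0.07 to 0.18. The annotation names the gene and no splice form, so the epithelial and mesenchymal forms were not separated.

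The other genes of the pathway were counted from lists, 69 genes in all. At 3 days 8 of them were higher and 7 lower, and at 7 days 12 were higher and 9 lower, against the shares of all genes given above. Of the 14 other FGF ligands, 2 were lower at both days. Fgf9, a ligand with a part in inner ear mesenchyme, was at -1.87 and -1.96, and Fgf18, a growth factor of cartilage and bone, at -2.64 and -2.76. The probe sets of Fgf4, named after its values were seen, did not share a call. Its brightest probe set was not called (0.06 and -0.05). Of its 4 probe sets, 2 were lower at both days, at -0.95 and -0.75 and at -0.78 and -0.82. The remaining Fgf4 probe set was not called (-0.08 and -0.14). Fgf11, the remaining FGF homologous factor, was higher at 7 days by 0.68, on 1 of its 2 probe sets. The 3 other receptors were not called at either day, with 0.20 and 0.50 for Fgfrl1, which lacks a kinase domain, and 0.00 and 0.40 for Fgfr3.

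Among the 20 coreceptors and extracellular modulators, 4 were higher and 1 lower at 3 days, and 6 were higher and 1 lower at 7 days. The proteoglycan genes Gpc1 (2.31 and 2.07) and Sdc1 (1.89 and 1.74) and Flrt3 (2.17 and 2.16), a membrane protein that binds FGF receptors, were raised at both days, as was the heparan sulphate sulphotransferase Hs2st1 (0.87 and 0.77), named after its values were seen. Fgfbp3, a carrier that releases FGFs from the matrix, was lower (-1.67 and -1.02). Of 12 adaptors and kinases, Nras was higher at 3 days (0.99), Shc1 (0.69) and Gab1 (0.59) at 7 days, and the adaptor Frs3 was lower at both (-0.84 and -0.83).

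The 14 feedback inhibitors and target genes, which FGF signalling shares with other growth factors, included 3 higher and none lower at 3 days and 3 higher and 2 lower at 7 days. The immediate early gene Egr1 was higher at both days (0.91 and 1.26) and the inhibitor Spred1 at 3 days (0.67). Il17rd, an inhibitor of FGF receptors, was higher at 7 days (0.95), as was the ERK phosphatase Dusp6 (0.61), named after its values were seen. The other Il17rd probe set was not called at that day (0.35). Spry3, a Sprouty inhibitor, was lower at 7 days (-0.80), on a probe set under 6 in all 12 arrays. Dusp4, a MAP kinase phosphatase, was higher at 3 days (0.76) and lower at 7 days (-0.66), and the difference between these responses was called, at -1.42 (limma adjusted p = 0.0279).

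**Figure D4:**
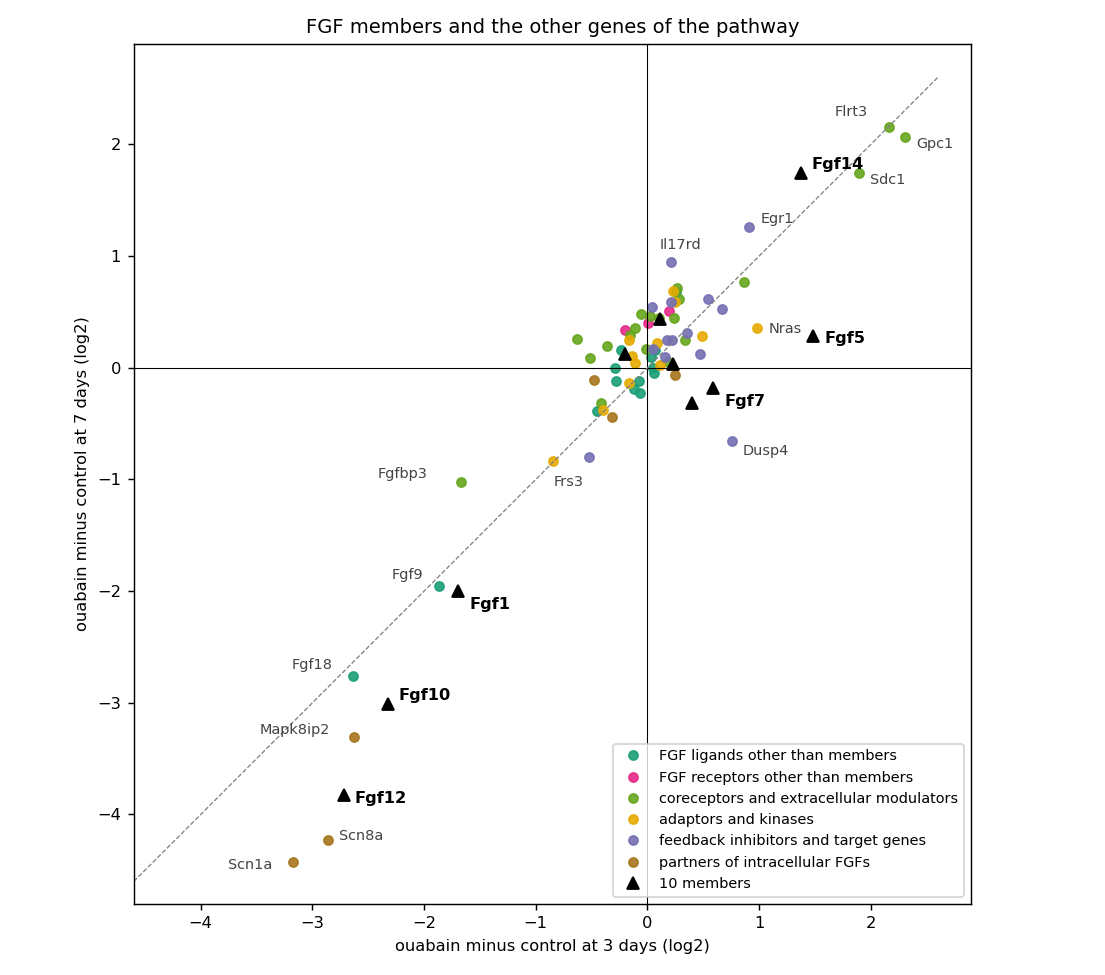
Difference between ouabain and control (log2) at 3 days against that at 7 days for the 10 members (triangles) and 69 other genes of the pathway (circles, coloured by list), with the diagonal of equal differences dashed. Fgf12, Fgf10 and Fgf1 lay at the lower left with Scn1a, Scn8a, Mapk8ip2, Fgf18 and Fgf9. Fgf5, Fgf7, Nras and Dusp4 were among the genes below the diagonal at the right.

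Markers of other cells also moved with ouabain, beside the higher values of Fgf5, Fgf7 and Fgf14. All 11 macrophage markers were higher at both days, with Cd68 at 3.08 and 2.33, and their summed level was between 5.18 and 7.07 in 3-day controls and between 24.3 and 29.4 after ouabain. All 6 markers of dividing cells were higher at 3 days and none at 7 days, with summed levels of 0.291 to 0.366 in 3-day controls, 1.80 to 2.93 in 3-day ouabain arrays and 1.97 in control replicate 1 of 7 days. The other 7-day controls were at 0.348 and 0.292, under the 7-day ouabain arrays at 0.699, 0.399 and 0.641. Of 10 fibroblast and matrix genes, 1 was higher at 3 days and 3 at 7 days, and 1, Thy1, which is also in the neuronal list, was lower at both, with summed levels of 39.2 to 43.2 against 46.3 to 50.2 at 3 days and 39.8 to 41.8 against 51.8 to 57.8 at 7 days. Repair and immature Schwann cells were covered by 10 genes, of which 7 were higher at both days, among them Ngfr at 2.35 and 2.17, and 1 was lower at both, Shh at -0.69 and -1.16, named after its values were seen. Of the 7 genes of myelinating Schwann cells, 2 were lower at 3 days and 4 at 7 days, and none was higher. They summed to 57.0 to 59.0 in 3-day controls and 43.0 to 44.8 after ouabain. At 7 days the sums were 54.9 to 56.4 in controls and 37.3 to 41.4 after ouabain. No marker of hair cells, the lateral wall or endothelium was called at either day, although the summed endothelial level at 7 days was 4.04 to 5.80 in controls and 6.07 to 7.47 after ouabain. Of 8 supporting cell genes, Prox1 was lower at both days (-1.84 and -2.05) and Otoa higher at 7 days (0.78), both named after their values were seen, and the summed level at 7 days was 13.4 to 15.6 in controls and 16.4 to 19.2 after ouabain. RMA gives no value of 0, and the part of any of these cells in the members' values was not tested.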

How the data were processed

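Total RNA from auditory nerve tissue was hybridised to 12 Affymetrix mouse arrays. Each deposited value is a log2 expression value of 1 probe set, which the authors made with the RMA method in the Affymetrix Expression Console, per the labels and the methods, and was used without further normalization. Tool versions are not given in the sources used here. Without the 64 control probe sets, 45037 remained and were fitted as 4 group means with limma 3.58.1 in R 4.3.3, and counts and figures were made with Python 3.11.15. Symbols came from the platform annotation, in which 932 probe sets carry several symbols and 9160 none. The named genes are the members, up to 4 called genes per pathway list and day (the 2 largest where none was called) and the first 2 genes of a marker list. The members and lists were chosen with earlier results of these data known, so their counts are descriptions. Of the listed pathway genes, 11 have no probe set of their own and were not used here. The procedure was tested on simulated data. The precision is limited by the 3 arrays per group. Alternatives were the methods' t-test, other normalizations, thresholds, filters and moderation, the mean over probe sets, a replicate block and each array left out. Promoter windows were matched by symbol for 8 of the 10 members, and Fgf1 and Fgfr1 were not matched.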

Additional observations from a re-analysis of the deposited data

Results flagged for a closer look

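The response to ouabain differed between 3 and 7 days, by limma's test of the difference itself, for 3 of the genes named here. Fgf7 changed by -0.77 on the log2 scale between the responses (adjusted p = 0.0458), a call that held in 2 of the 12 fits with 1 array left out. Dusp4 changed by -1.42 (adjusted p = 0.0279), from higher than control to lower. Lgals3, a macrophage marker, changed by -1.22 (adjusted p = 0.0308) and was higher than control at both days, at 3.86 and 2.63. The groups of 3 arrays are too small for a search for single outlying arrays.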

How the results depend on the processing

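Over 27 alternatives, 720 of 767 recomputed values of single members kept their direction and their side of the threshold. Most of the 30 values recomputed were not called in the main fit, so many of the 720 only stayed uncalled. A call was lost in 36 cases and gained in 7. With the methods' t-test at its unadjusted p, 6 members were called at 3 days and 4 at 7 days, and after Benjamini-Hochberg adjustment 4 (Fgf1, Fgf5, Fgf7 and Fgf10) and 2 (Fgf1 and Fgf10). With unequal variances and adjusted p, 0 members were called at 3 days and 2 at 7 days (Fgf1 and Fgf10), where limma called 6 and 4, and 3 and 5 other pathway genes, where limma called 15 and 21. The pathway counts were 25 and 33 with no fold threshold and 9 and 10 with a fold above 2. A day difference was called for 2 members, Fgf5 and Fgf7, with the filter on low values, the 75th percentile subtracted, trend and robust moderation, array weights or the mean over probe sets, and for 0 with a fold above 2. Fgf5 passes that filter only through the 3-day ouabain arrays, so its call there supports nothing. Fgf14 passes it only with its ouabain arrays, so a call of Fgf14 under the filter supports nothing either. Leaving out each array gave 3 to 6 members at 3 days (3 without control replicate 1, which ended the calls of Fgf7, Fgf12 and Fgf14), 4 at 7 days, and 0 to 1 with a day difference. It gave 15 to 18 pathway genes at 3 days and 17 to 22 at 7 days. The sign turned for 4 values that were not called. Fgf14's day difference was -0.034 with the mean over probe sets. With arrays left out, Fgf13 ranged from -0.077 (without control replicate 3) to 0.644 at 3 days and from -0.828 to 0.103 (without control replicate 1) at 7 days, and Fgf2 from -0.025 (without ouabain replicate 2) to 0.067 at 7 days. The cause was not tested. Without both ouabain replicate 1 arrays, chosen after seeing the data, the same 6 and 4 members were called, and 17 and 22 pathway genes.

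After the group mean of each probe set was subtracted, same-numbered control and ouabain arrays correlated at 0.33, 0.09 and 0.18 at 3 days. At 7 days they correlated at 0.28, 0.16 and 0.02. Arrays of different numbers correlated at -0.27 to 0.15 at 3 days and at -0.33 to 0.15 at 7 days. For every control array the same-numbered ouabain array of its day had the highest correlation, in some cases by little. No source ties a number to an animal, so the main test did not take the numbers as pairs. With a replicate block, 6 members at 3 days, 4 at 7 days and 1 with a day difference were called, the same genes as without it, and the pathway counts were 15 and 22.

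Fgf2, Fgf5 in most arrays, Fgf14 in controls, Spry3 and several second probe sets lie near the arrays' floor, where small differences are compressed. With 3 pooled samples per group, intervals as wide as Fgf13's cannot show a change of 1.5-fold.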
